A study of Mus musculus with 14 samples.

Results

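The region described here is the Nanog, Dppa3 and Gdf3 locus of mouse chromosome 6, taken as chr6:122550001-122730000 of the mm9 build, a window of 180 kb. Its members were every 200-bp bin with CpG counts and every peak in that window, chosen by position alone. They were 704 bins of the 7282466 bins with counts in any of the 8 libraries, and 20 H3K27ac and 19 H3K4me1 peaks of ESCs and 11 H3K27ac and 20 H3K4me1 peaks of differentiated cells. Positions below are in kb from 122657000, the start of the interval that holds Nanog (122657000 to 122665000, called the Nanog interval), and are negative towards Dppa3 and Gdf3.

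The data were ChIP-bisulfite sequencing (ChIP-BS-seq) libraries, in which chromatin cut with micrococcal nuclease was precipitated for a histone mark and the DNA then bisulfite-converted, so that each CpG read carries its methylation state (5mC or unmethylated C). All cells derived from R1 mouse embryonic stem cells (ESCs), kept in serum with LIF and the 2i inhibitors of MEK and GSK3. The ESC libraries came from cells 2 days after withdrawal of 2i. The differentiated cells had been grown for 4 days without LIF in 1 µM retinoic acid, and the extraembryonic endoderm (XEN) cells had been derived from R1 cells over 9 days with retinoic acid (0.1 µM) and activin A. Each of H3K4me1 and H3K27ac had 1 library in ESCs, 1 in differentiated cells and 2 in XEN cells. Values in ESCs and differentiated cells therefore have no replicate check. Every interval given below is a 95% interval for counting error only, with CpG counts taken as independent.

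Nanog encodes a homeodomain transcription factor of the naive pluripotent state. Dppa3 (Stella) encodes a maternal factor known to protect the early embryo's genome from demethylation, and Gdf3 encodes a ligand of the TGF-beta family. The 3 genes lie next to each other in the order Gdf3, Dppa3, Nanog, and the next protein-coding gene after Nanog is Slc2a3, which encodes a glucose transporter. Nucleosomes flanking enhancers carry H3K4me1, acetylation of H3K27 is added where an enhancer or promoter is in use, and 5mC is low at enhancers that transcription factors occupy. Gdf3 and Dppa3 have no mm9 position in the files used here, so blocks on their side are given by distance and not assigned to either gene.

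The Nanog promoter is shown with its CpGs because only CpGs give counts in these data. The CpGs of the mm9 bins themselves were not counted. The 250 bases before 1 of the 2 RefSeq starts of Nanog (chr6:122707315-122707564, plus strand, GRCm38.p6, a build whose positions differ from those of mm9) are given with their CpGs in capitals.
Nanog promoter: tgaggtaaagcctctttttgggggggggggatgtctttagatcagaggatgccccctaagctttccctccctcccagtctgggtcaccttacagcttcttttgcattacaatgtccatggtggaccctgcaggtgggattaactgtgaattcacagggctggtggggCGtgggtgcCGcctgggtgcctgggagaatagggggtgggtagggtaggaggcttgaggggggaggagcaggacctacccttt
It holds 2 CpGs, and the 250 bases before the other listed start hold 3, against a median of 6 (quartiles 2 and 16) over the 32851 promoters listed. The composite motif bound by SOX2 and OCT4, searched on both strands as CATTGT followed after 1 base by ATGCAAA, was present as TTTGCATTACAATG from 151 to 138 bases before this start. As this exact string it was present in 2 of the 32851 promoters, or 0.00609%. Both were the overlapping entries of Nanog, which hold the same site, so 1 gene had it. No promoter of Dppa3 or Gdf3 was listed.

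The libraries held between 12147115 and 58803653 CpG counts, of which the window took 3213 to 20603. Between 231 and 680 of the 704 bins had counts in a single library. For XEN cells the sample labels and the file names disagree on which libraries are H3K4me1 and which H3K27ac. Over all bins of at least 30 counts the XEN libraries labelled H3K4me1 had 13.6% and 15.6% 5mC and those labelled H3K27ac 59.0% and 58.7%. In ESCs and differentiated cells it was H3K27ac that was lower (5.92% and 12.8%, against 28.8% and 47.9% for H3K4me1). Of their counts, 62.1% and 59.6% (labelled H3K4me1) and 86.9% and 84.7% (labelled H3K27ac) lay in H3K4me1 peaks of differentiated cells, where those cells had 78.1% of their H3K4me1 and 59.3% of their H3K27ac counts. On both measures the XEN libraries were nearest to the mark of differentiated cells that the file names give them, the opposite of the labels. The share of counts in H3K27ac peaks of differentiated cells did not part them, at 72.7% and 68.6% (labelled H3K4me1) and 72.5% and 69.6% (labelled H3K27ac), against 59.6% of H3K4me1 and 67.5% of H3K27ac counts in those cells. The labels are followed below all the same, so every XEN comparison of one mark with another cell state depends on them, and each XEN value is given as that of a library labelled with a mark. Bins under 4 counts are missing from the XEN files, so low XEN levels are understated.

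**Figure D1:**
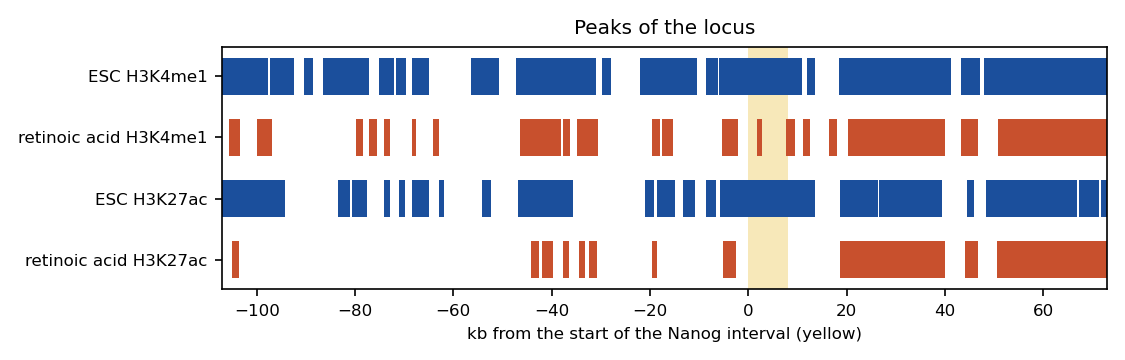
Peaks of the locus, 1 row per mark and cell state, along the distance in kb from the start of the Nanog interval (yellow); each bar is 1 peak, clipped at the window. H3K27ac peaks covered 113.5 kb in ESCs and 59.7 kb in differentiated cells, and 46.5 kb of the length covered after retinoic acid lay on the right, the side of Slc2a3.

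After retinoic acid H3K27ac was largely gone from Nanog and from the side of Dppa3 and Gdf3, while the side of Slc2a3 kept it. H3K27ac peaks covered 63.1% of the window in ESCs and 33.2% in differentiated cells, and H3K4me1 peaks 78.3% and 46.6%. In ESCs the Nanog interval lay wholly inside 1 H3K27ac peak of 19.2 kb, from -5.64 to 13.6 kb, ranked 412 of the 100469 peaks in its list. In differentiated cells no H3K27ac peak touched the interval, and H3K4me1 peaks covered 17.2% of it. What remained of the ESC peak was a single H3K27ac peak of 2.65 kb at -5.12 to -2.47 kb, ranked 10058 of 102600, inside an H3K4me1 peak of 3.22 kb.

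On the Dppa3 and Gdf3 side, from the window's start to 10 kb before the Nanog interval, H3K27ac peaks covered 46.3 kb in ESCs and 10.5 kb after retinoic acid. On the Slc2a3 side, from 10 kb after the interval to the window's end, they covered 46.0 kb and 46.5 kb. Of the 20 H3K27ac peaks of ESCs, 10 met no H3K27ac peak of differentiated cells, a share near the 45.4% of the whole list, and all 10 lay below the Nanog interval, between -83.5 and -6.46 kb. Their widths ran from 1.00 to 3.55 kb. Of the 19 H3K4me1 peaks of ESCs, 6 met none after retinoic acid, beside 44.6% of the whole list, at starts of -90.3, -71.7, -67.3, -56.3, -29.8 and -8.52 kb.

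Of the 11 H3K27ac peaks of differentiated cells 2 had no counterpart in ESCs, beside 45.8% of the whole list, and of the 20 H3K4me1 peaks 3 had none, beside 43%. Both of these H3K27ac peaks lay beside each other at -34.4 to -33.2 kb and -32.4 to -30.8 kb, ranked 65369 and 63882 of 102600. The 3 new H3K4me1 peaks lay at -77.1, -64.1 and 16.5 kb and ranked between 84382 and 118624 of 158989. The highest-ranked peaks of both marks after retinoic acid were on the Slc2a3 side, an H3K27ac peak of 30.1 kb from 50.6 kb (rank 62) and 1 of 21.5 kb from 18.6 kb (rank 220). The same stretches held H3K4me1 peaks of 31.3 kb (rank 91 of 158989) and 19.9 kb (rank 734).

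**Figure D2:**
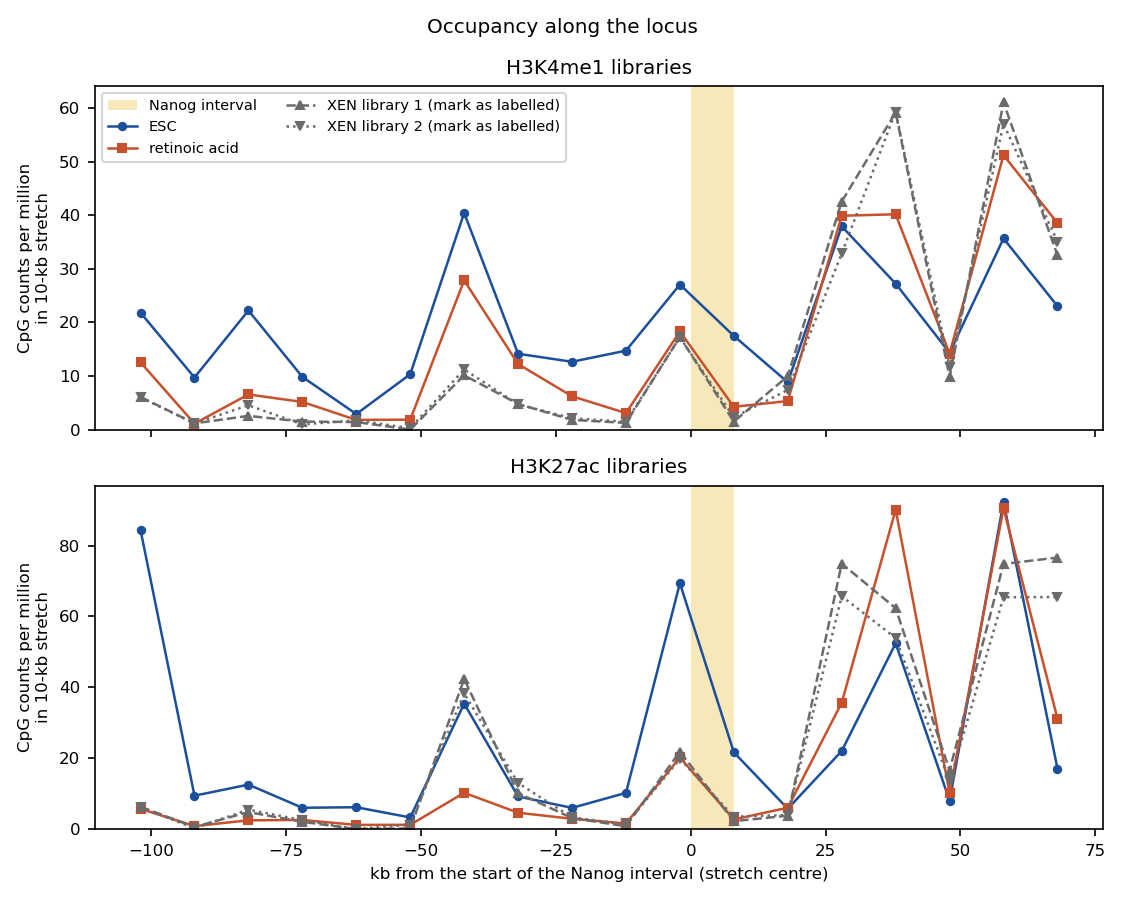
Occupancy in CPM (CpG counts scaled to a library total of 1000000) in each 10-kb stretch of the locus, plotted at its centre in kb from the start of the Nanog interval, for H3K4me1 (top) and H3K27ac (bottom) libraries of each cell state. H3K27ac went from 84.4 to 5.73 CPM in the first stretch and from 69.4 to 20.2 in the stretch that opens the Nanog interval, while the stretch centred at 38 kb went from 52.4 to 90.1.

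Occupancy, the CpG counts of a region scaled to a library total of 1000000 (CPM), followed the peaks. The Nanog interval had an H3K27ac occupancy of 23.2 CPM in ESCs and 2.45 in differentiated cells, 9.49-fold lower (7.52 to 12.1). H3K4me1 there went from 15.3 to 4.20 CPM, 3.65-fold lower (3.13 to 4.28). The losses of both marks exceeded counting error, and that of H3K27ac was the larger.

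With 10 kb on either side of the interval, H3K27ac went from 95.2 to 23.6 CPM, 4.04-fold lower (3.73 to 4.38), and H3K4me1 from 48.1 to 25.1, 1.92-fold lower (1.79 to 2.05). The direction of H3K4me1 turned (log2 ratio from -0.94 to 0.24) with bins of at least 4 counts in every library. That setting leaves out bins that lost the mark and also scales each library to its counts in the bins kept. Which of these changes turned the ratio was not tested. On the Dppa3 and Gdf3 side H3K27ac went from 179 to 33.1 CPM, 5.41-fold lower (5.07 to 5.78), and H3K4me1 from 156 to 77.4, 2.01-fold lower (1.94 to 2.09). On the Slc2a3 side H3K27ac was instead 1.34-fold higher (1.29 to 1.38), at 263 CPM against 197. H3K4me1 was 1.28-fold higher there (1.25 to 1.32), at 188 against 146, a difference that was gone when libraries were scaled to their counts outside peaks (log2 ratio -0.0057). That other scaling moved all log2 ratios of H3K4me1 by -0.37 and those of H3K27ac by 0.16. With bins of at least 4 counts in every library, log2 ratios on the Slc2a3 side were 0.047 for H3K27ac and 0.048 for H3K4me1, against 0.42 and 0.36. On the Dppa3 and Gdf3 side they were -1.66 and -0.32, against -2.44 and -1.01. This division into 3 sides was made after the profile had been seen.

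The number of bins with at least 30 H3K27ac counts, in libraries of nearly equal depth, followed the same division. On the Dppa3 and Gdf3 side 47 bins held that many in ESCs and 4 in differentiated cells, and around Nanog, with 10 kb on either side, 31 and 5. On the Slc2a3 side 58 bins did in ESCs and 78 in differentiated cells. For H3K4me1, where the library of differentiated cells was the shallower, the numbers were 114 and 35, 39 and 12, and 108 and 104, in the same order of sides. Over the genome 156568 and 154229 bins held that many on H3K27ac, and 578342 and 405939 on H3K4me1.

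The most acetylated bins of ESCs stood at both ends of the window and parted ways. The bin with most ESC H3K27ac counts, chr6:122559801-122560000 at -97.2 kb, had 390 counts in ESCs and 20 in differentiated cells. A second bin close by, chr6:122559401-122559600, went from 374 to 9 counts, in libraries of nearly equal depth (32588942 and 32305709 counts). In XEN cells the first of them had 16 and 17 counts in the libraries labelled H3K27ac, and 0 listed and 16 in those labelled H3K4me1. Both bins were unmethylated on H3K27ac in ESCs (0.513% and 0%). On H3K4me1 after retinoic acid they had 37.5% (21.1 to 56.3, 32 counts) and 28.6% (14.6 to 46.3, 35 counts) 5mC, against 0% of 29 and 0% of 18 counts in ESCs.

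At the other end, the bins chr6:122715001-122715200, chr6:122714401-122714600 and chr6:122714801-122715000, at 57.4 to 58 kb, had 372, 339 and 306 H3K27ac counts in ESCs and 396, 403 and 307 in differentiated cells. With the bin between them they stayed almost free of 5mC everywhere. The 4 bins had 0.334% 5mC in ESCs and 0.861% in differentiated cells on H3K27ac, and 0.444% and 0.435% on H3K4me1. The libraries labelled H3K4me1 of XEN cells had 1.68% and 1.16%, and those labelled H3K27ac 0.946% and 4.07%.

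**Figure D3:**
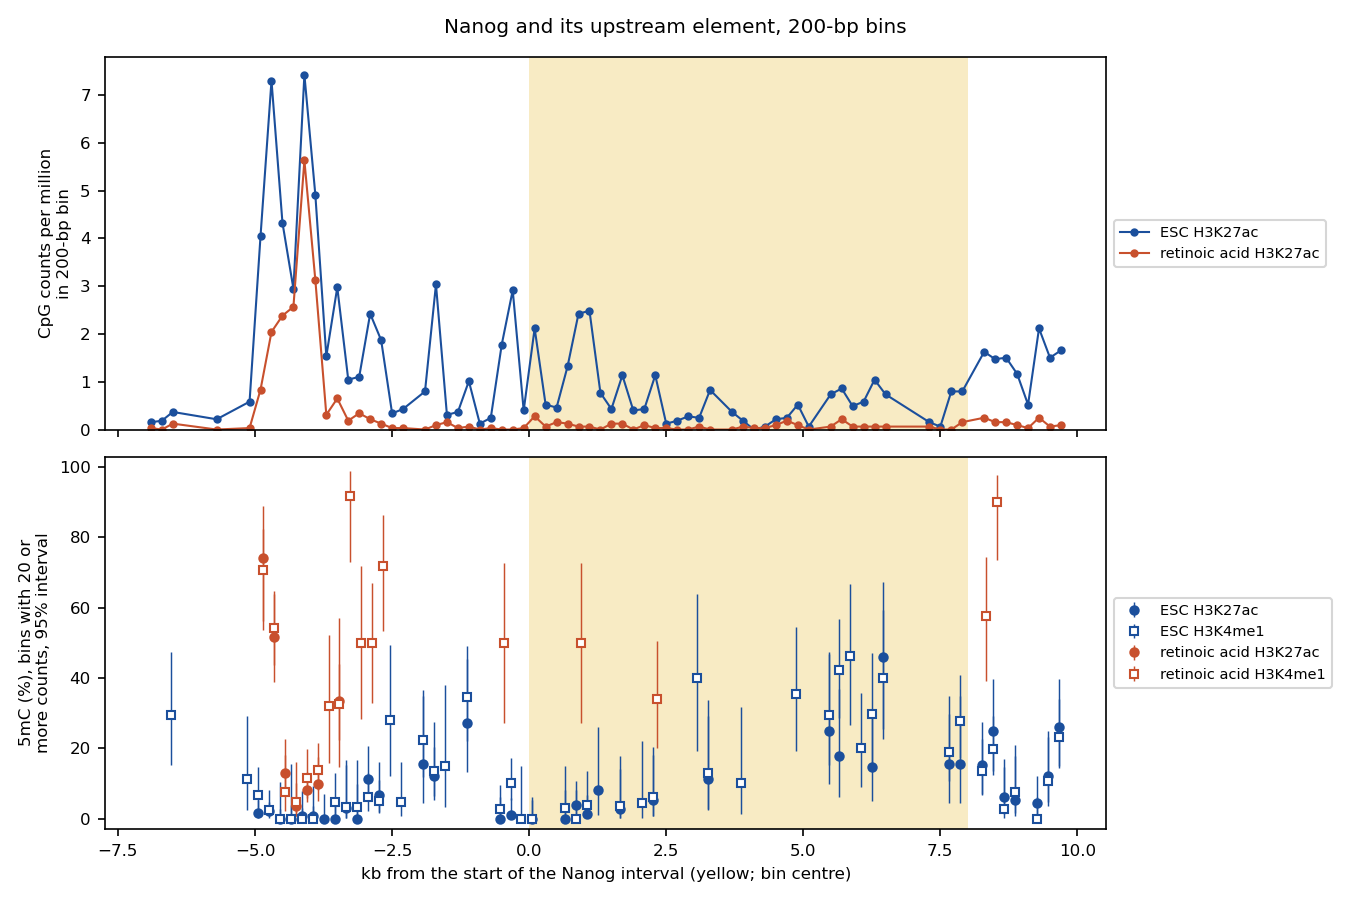
The 200-bp bins from -7 to 10 kb: H3K27ac occupancy in CPM in ESCs and differentiated cells (top), and 5mC in percent of counts with 95% Clopper-Pearson intervals for bins of at least 20 counts (bottom; filled circles H3K27ac, open squares H3K4me1). After retinoic acid the highest H3K27ac bins lay between -4.8 and -4.0 kb, and 5mC in the 4 core bins there was at most 13.8% on either mark, with higher values in the bins on either side.

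The element at -5 kb, the region of the H3K27ac peak that remained in differentiated cells, was chosen by the H3K27ac left there, so its higher H3K27ac in those cells follows from the choice and is given as a description. Its 14 bins (chr6:122651801-122654600) had an H3K27ac occupancy of 42.8 CPM in ESCs and 18.5 in differentiated cells, 2.32-fold lower (2.10 to 2.56). The other 89 bins within 10 kb of the Nanog interval had 52.3 and 5.08, 10.3-fold lower (8.78 to 12.2). H3K4me1 over the element was 11.9 and 14.3 CPM, 1.21-fold higher after retinoic acid (1.08 to 1.34) but 0.94-fold under the scaling to counts outside peaks. Over the other 89 bins it was 36.2 and 10.8, 3.35-fold lower (3.04 to 3.70).

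Shares of the Nanog region's counts describe the same choice. Of the H3K27ac counts within 10 kb of the interval, 45.0% (43.3 to 46.8) lay in it in ESCs and 78.4% (75.4 to 81.3) in differentiated cells. For H3K4me1 the shares were 24.7% (23.1 to 26.3) and 56.9% (54.0 to 59.8). In XEN cells the libraries labelled H3K4me1 had 85.8% and 76.2% of their counts there and those labelled H3K27ac 80.9% and 73.2%, shares raised by the bins under 4 counts that XEN files leave out.

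Within the element, 5mC divided a core from its edges. The 4 core bins (chr6:122652401-122653200), picked after their values were seen, had no methylated count among 140 on H3K4me1 in ESCs and 10.8% (7.54 to 14.8) of 306 in differentiated cells. On H3K27ac they had 0.469% of 639 counts and 8.58% (6.14 to 11.6) of 443. The 10 other bins of the element went from 5.92% to 54.1% (48.8 to 59.3) on H3K4me1 and from 3.57% to 50.6% (42.5 to 58.8) on H3K27ac. In the core H3K27ac was 1.43-fold lower (1.26 to 1.62) after retinoic acid and H3K4me1 2.72-fold higher (2.22 to 3.35), or 2.11-fold under the other scaling.

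All 4 XEN libraries had the same contrast between core and edges. The core had 13.8% and 14.8% 5mC in the libraries labelled H3K4me1 and 25.4% and 31.4% in those labelled H3K27ac. The edges had 69.6% and 56.8%, and 65.6% and 69.0%. Occupancy of the core was 13.2 and 12.5 CPM in the libraries labelled H3K4me1, against 2.38 in ESCs and 6.49 in differentiated cells. In the libraries labelled H3K27ac it was 11.6 and 9.67, against 19.6 and 13.7.

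The bins around the start of the Nanog interval, from -0.6 to 1.8 kb, had no such remainder. Their 12 bins had an H3K27ac occupancy of 16.8 CPM in ESCs and 1.02 in differentiated cells, 16.4-fold lower (11.5 to 24.1). H3K4me1 was 8.13 and 2.37 CPM. Their 5mC went from 3.56% (2.09 to 5.63, 478 counts) to 52.7% (43.0 to 62.2, 112 counts) on H3K4me1. On H3K27ac it was 1.47% of 546 counts in ESCs and 54.5% (36.4 to 71.9) of 33 counts in differentiated cells. In XEN cells the 4 libraries together listed only 4, 26, 47 and 54 counts there, with 5mC of 69.2% to 80.9%.

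**Figure D4:**
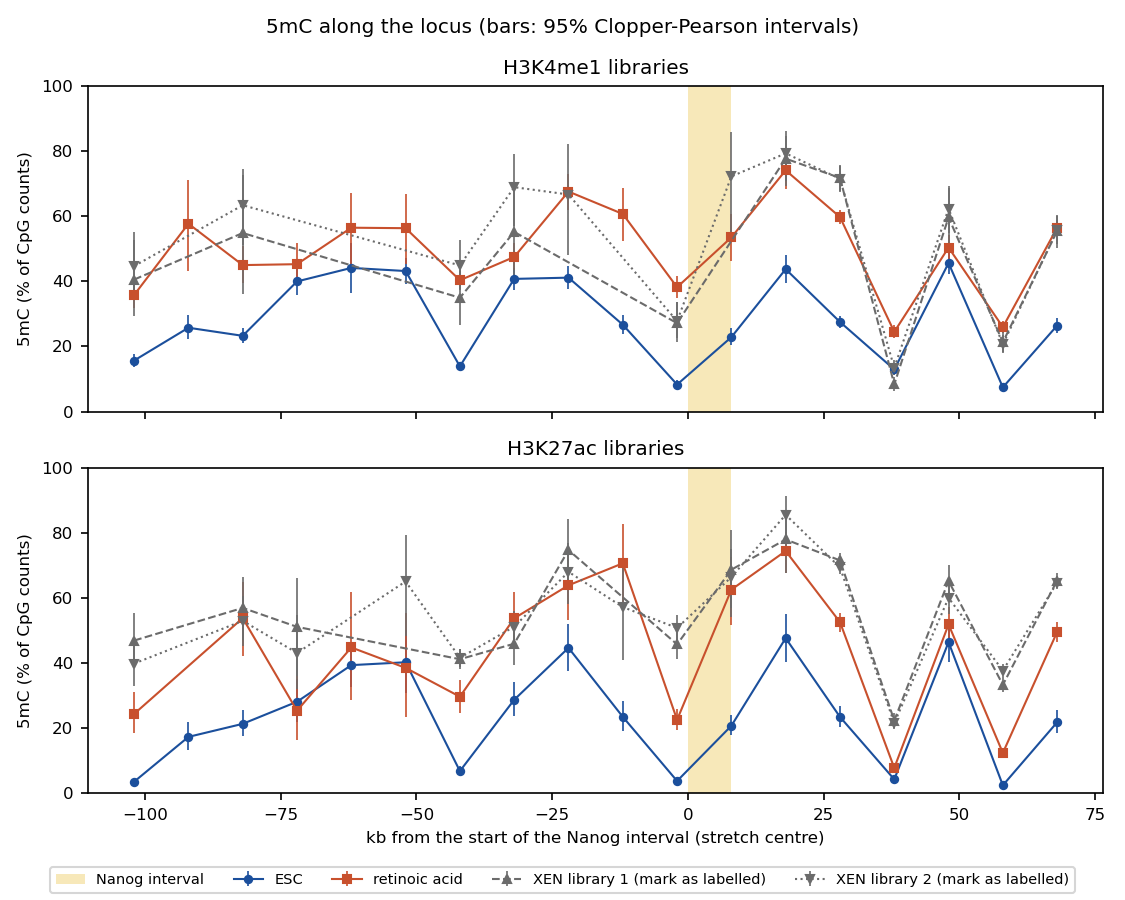
5mC in percent of CpG counts per 10-kb stretch with at least 30 counts, with 95% Clopper-Pearson intervals, along the distance in kb from the start of the Nanog interval, for H3K4me1 (top) and H3K27ac (bottom) libraries. On H3K4me1 every stretch was higher after retinoic acid than in ESCs, and the dips at -42, -2, 38 and 58 kb were present in all 3 cell states.

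Over the whole window 5mC on H3K4me1 was 23.0% (22.4 to 23.6) in ESCs and 42.9% (42.1 to 43.8) in differentiated cells. On H3K27ac it was 10.5% (10.0 to 11.0) and 25.5% (24.7 to 26.4). The Nanog interval alone went from 18.0% (15.5 to 20.7) to 49.0% (41.8 to 56.2) on H3K4me1, and from 11.2% (9.08 to 13.7) to 62.0% (50.4 to 72.7) on the 79 H3K27ac counts left there. All of these gains were larger than counting error. The difference between the marks in the interval was not tested.

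Bins were compared one by one where they lay in a peak of the mark in either state and held at least 30 counts in both libraries. Fisher's exact test (two-sided, Benjamini-Hochberg adjusted over all bins of the genome tested) compares the 2 libraries and not the conditions. On H3K4me1, 126 bins of the locus were tested, and 74 had more 5mC after retinoic acid at an adjusted p under 0.05, beside 47.8% of bins in the genome. The 2 with less stood beside 1.84% in the genome. The median change was 20.7 percentage points (quartiles 9.24 and 39.5), against 17.4 over all bins tested. On H3K27ac 24 of 61 bins had more, beside 13.8% in the genome, and 0 had less by Fisher's exact test, beside 1.06% (1 bin at an unadjusted p under 0.05). The median change there was 5.60 points, against 0.72 in the genome.

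Around Nanog, with 10 kb on either side, 10 of 11 bins passed as higher on H3K4me1, beside 47.8% in the genome. Their medians were 4.90% in ESCs and 50.0% in differentiated cells over the 11 bins. The bin that did not pass lay in the core of the element at -5 kb. Only 1 bin of the Nanog interval itself held 30 counts in both libraries, and 5mC there rose from 6.06% to 34.1%. On the Dppa3 and Gdf3 side 16 of 30 bins passed as higher and 2 as lower, and on the Slc2a3 side 48 of 85 as higher. These shares of higher bins were near the genome's 47.8%. By sign alone 11 bins around Nanog, 27 on the Dppa3 and Gdf3 side and 80 on the Slc2a3 side were higher. On H3K27ac, beside 13.8% in the genome, 4 of 5 bins passed as higher around Nanog, all in or next to the core. On the Slc2a3 side 20 of 53 did, and 0 of 3 on the Dppa3 and Gdf3 side, where few bins kept 30 counts.

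**Figure D5:**
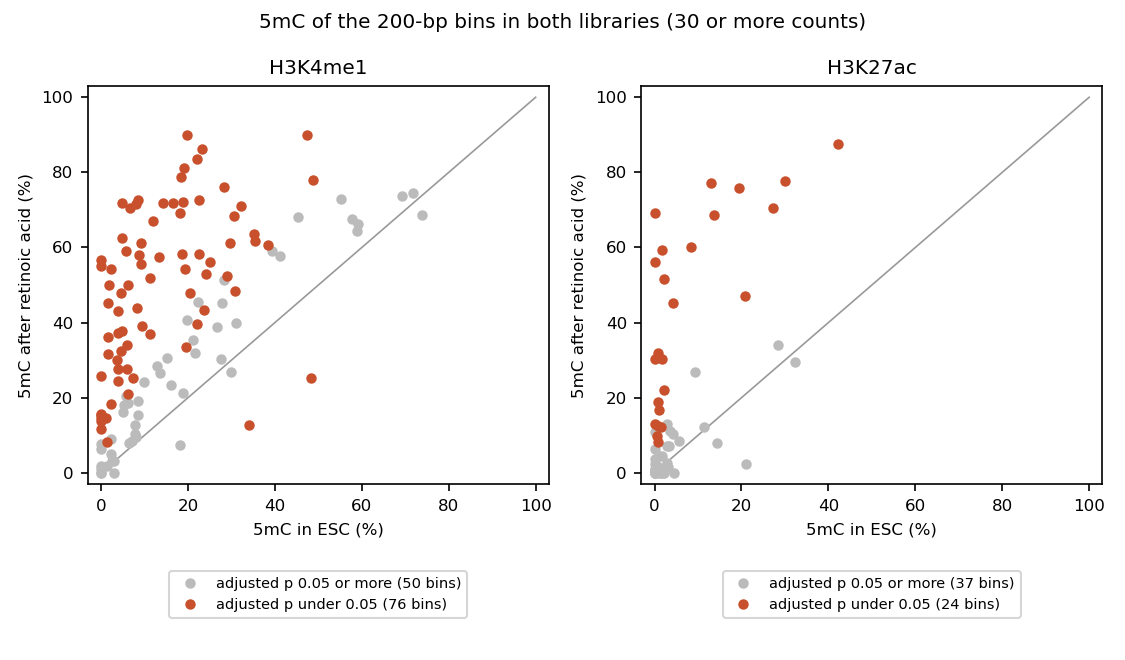
5mC in ESCs (horizontal) and differentiated cells (vertical) for each bin of the locus tested on H3K4me1 (left, 126 bins) and H3K27ac (right, 61 bins); the line marks equal values and red points passed the adjusted threshold. Most bins lie above the line, and on H3K27ac many stayed near 0 in both states.

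The largest rises on H3K4me1 flanked Nanog and lay beyond it at 62 to 64 kb. The bin at 8.4 kb, chr6:122665401-122665600, went from 19.8% of 96 counts to 90.0% of 30 (adjusted p = 1.52e-10, Fisher's exact test). The bin at -2.8 kb, chr6:122654201-122654400, went from 4.90% of 102 to 71.9% of 32 (adjusted p = 2.82e-12, same exact test). The bin at -5.0 kb, chr6:122652001-122652200, at the outer edge of the element, went from 6.58% of 76 to 70.6% of 51 (adjusted p = 1.23e-12, same exact test). These 3 bins lost H3K27ac as well, from 48, 61 and 132 counts to 5, 4 and 27.

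The other 2, chr6:122719401-122719600 and chr6:122720801-122721000, went from 8.43% to 72.5% and from 7.94% to 71.6%. This short stretch also held 3 of the 5 largest rises on H3K27ac, with a smaller loss of H3K27ac than the bins near Nanog. The 10 bins from chr6:122718801 to 122721200 had an H3K27ac occupancy of 14.4 CPM in ESCs and 11.5 in differentiated cells, 1.26-fold lower (1.10 to 1.45). Their 5mC went from 5.96% (3.99 to 8.50) to 58.6% (53.4 to 63.7) on H3K27ac and from 11.0% to 65.5% on H3K4me1. The bin chr6:122721001-122721200 went from 0 methylated of 62 H3K27ac counts to 69.2% of 65 (adjusted p = 2.50e-16, Fisher's exact test). In XEN cells the 10 bins had 75.7% and 71.7% in the libraries labelled H3K4me1 and 73.4% and 75.8% in those labelled H3K27ac.

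The remaining 2 of the 5 largest rises on H3K27ac were at 25.4 and 25.8 kb. Bin chr6:122682801-122683000 went from 12.9% of 31 counts to 77.0% of 61, and bin chr6:122682401-122682600 from 19.5% of 41 to 75.8% of 33 (adjusted p = 1.87e-07 and 3.22e-05, same exact test). Both kept H3K27ac counts after retinoic acid, and their 5mC in the 4 XEN libraries ran from 58.7% to 88.7%. They lay in a 10-kb stretch whose 5mC in XEN cells was 71.8%, 71.5%, 71.5% and 69.3% in the 4 libraries, above the 59.7% and 52.5% of differentiated cells and the 27.5% and 23.4% of ESCs.

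The next 10-kb stretch, from 33 to 43 kb, was the least methylated 10-kb stretch of the window on both marks in differentiated cells and, among stretches of at least 30 counts, in all 4 XEN libraries. On H3K4me1 it had 12.9% in ESCs and 24.5% in differentiated cells, and on H3K27ac 4.22% and 7.73%. The XEN libraries labelled H3K4me1 had 8.34% and 13.4% there and those labelled H3K27ac 22.3% and 21.5%. H3K27ac occupancy there was 52.4 CPM in ESCs and 90.1 in differentiated cells.

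A pair of adjacent bins at -34 kb went the other way and lost 5mC. On H3K4me1 chr6:122623001-122623200 went from 48.2% of 112 counts to 25.2% of 139 (adjusted p = 0.000779, Fisher's exact test). Its neighbour chr6:122622801-122623000 went from 34.0% of 53 to 12.7% of 63 (adjusted p = 0.0183, same exact test). Together they had 43.6% (35.9 to 51.6) in ESCs and 21.3% (15.9 to 27.6) in differentiated cells. On H3K27ac, a separate library, the pair had 62.5% (40.6 to 81.2) of 24 counts and 34.1% (20.5 to 49.9) of 44, with overlapping intervals. XEN cells were low as well, at 24.0% and 24.4% of 129 and 172 counts in the libraries labelled H3K27ac and 16.0% and 14.3% of 25 and 7 counts in those labelled H3K4me1. The bins lay inside 1 of the 2 H3K27ac peaks new after retinoic acid.

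That peak belonged to a block of joined peaks from -47.3 to -30.5 kb (chr6:122609747-122626521) that kept H3K4me1 better than any other block on the Dppa3 and Gdf3 side with over 5 CPM in ESCs. H3K4me1 was 53.1 CPM in ESCs and 39.8 in differentiated cells, 1.34-fold lower (1.26 to 1.42), and H3K27ac 43.1 and 14.4, 2.99-fold lower (2.69 to 3.33). XEN libraries labelled H3K27ac had 52.2 and 50.8 CPM in it, above the H3K27ac of both other states. Those labelled H3K4me1 had 14.9 and 15.4. Under the file names the order turns. XEN H3K4me1 then lay just below that of ESCs and above that of differentiated cells. XEN H3K27ac lay far below that of ESCs and close to the 14.4 CPM of differentiated cells. Its least methylated bins in ESCs, 7 bins at -44.2 to -42.8 kb, had 3.61% 5mC on H3K4me1 in ESCs, 29.9% in differentiated cells, and 22.3% and 19.3% in the XEN libraries labelled H3K27ac.

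The block at the window's start, joined peaks up to -92.5 kb counted within the window, was the most acetylated of this side in ESCs and lost the most counts. H3K27ac went from 92.3 to 6.28 CPM, 14.7-fold lower (12.7 to 17.0), and H3K4me1 from 28.5 to 13.1, 2.18-fold lower (1.98 to 2.39). The XEN libraries labelled H3K27ac had 6.90 and 6.44 there and those labelled H3K4me1 6.92 and 6.62. 5mC of the block went from 4.15% to 26.1% on H3K27ac and from 17.5% to 36.6% on H3K4me1.

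The 2 marks were compared within a cell state over bins in peaks of both with at least 30 counts in both. In ESCs none of 110 bins differed by more than 20 points, beside 1.36% of bins in the genome higher on H3K4me1 and 1.03% lower. In differentiated cells 1 of 75 did, beside 4.64% higher and 0.606% lower. The bin, chr6:122688001-122688200 at 31.0 kb, had 56.2% (43.3 to 68.6) of 64 counts on H3K4me1 and 23.5% (10.7 to 41.2) of 34 on H3K27ac, with an adjusted p of 0.13 (Fisher's exact test). No bin passed an adjusted p under 0.05 by Fisher's exact test, beside 0.0692% higher and 0.00973% lower of the genome's bins in ESCs and 0.801% and 0.0126% in differentiated cells. At an unadjusted p under 0.05 there were 2 bins higher on H3K4me1 in ESCs, and 6 higher and 1 lower in differentiated cells. The median difference was 0.85 points in ESCs and 2.83 in differentiated cells, against 0.51 and 3.07 over all bins tested. Of the 75 bins in differentiated cells, 67 lay on the Slc2a3 side. Another 5 lay within 10 kb of the Nanog interval, 0 of them inside it, and 3 on the Dppa3 and Gdf3 side. The lower 5mC of H3K27ac over the whole window was thus not matched by median differences of that size in shared bins. In differentiated cells this describes mostly the Slc2a3 side.

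In XEN cells 5mC over the window was 38.0% and 39.6% in the libraries labelled H3K4me1 and 49.5% and 49.9% in those labelled H3K27ac. The difference was -10.9 points (H3K4me1 minus H3K27ac, label means 38.8% ± 1.14 and 49.7% ± 0.266, SD, n = 2 each). It was larger than the spread between replicates, but 2 libraries against 2 cannot give less than p = 0.333, the value of the exact two-sided permutation test. In ESCs and differentiated cells H3K4me1 was instead higher, by 12.5 and 17.4 points, and the XEN difference turns to 10.9 points under the marks of the file names.

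Occupancy in XEN cells was also compared by side. Within 10 kb of the Nanog interval the libraries labelled H3K4me1 had 19.8 and 20.1 CPM and those labelled H3K27ac 24.4 and 24.2, against 25.1 and 23.6 in differentiated cells. Most of this lay in the element at -5 kb. In the other 89 bins the libraries labelled H3K4me1 had 2.80 and 4.78 CPM, against 10.8 in differentiated cells, and those labelled H3K27ac 4.66 and 6.48, against 5.08. Scaled to counts outside peaks, the log2 ratios to differentiated cells within 10 kb of the interval were -0.59 and -0.67 for the label H3K4me1 and 0.66 and 0.47 for H3K27ac. On the Dppa3 and Gdf3 side they had 30.6 and 33.8, and 70.3 and 71.5, against 77.4 and 33.1. On the Slc2a3 side they had 214 and 203, and 309 and 267, against 188 and 263. On the Dppa3 and Gdf3 side XEN libraries labelled H3K4me1 lay below differentiated cells and those labelled H3K27ac above them, while on the Slc2a3 side all 4 lay above, the second replicate labelled H3K27ac by less than counting error (1.01-fold, 0.984 to 1.05). That direction on the Slc2a3 side depended on the scaling. Both libraries labelled H3K4me1 lay below differentiated cells when scaled to counts outside peaks (log2 -0.060 and -0.24), and all 4 did with bins of at least 4 counts in every library (-0.21 and -0.16 for the label H3K4me1, -0.11 and -0.24 for H3K27ac). Under the file names the directions for H3K4me1 hold, at 70.3 and 71.5 CPM against 77.4 on the first side and 309 and 267 against 188 on the second. Those for H3K27ac do not, at 30.6 and 33.8 against 33.1 and 214 and 203 against 263. Over the whole window the ratio of the label H3K27ac to ESCs turned from below to above 1 when scaled to counts outside peaks (log2 -0.30 and 0.38).

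Few bins of the locus held 30 counts for 5mC. Against ESCs, 25 of 49 bins were over 20 points higher in both libraries labelled H3K27ac, beside 62.6% in the genome, and 3 of 14 in both labelled H3K4me1, beside 26.3%. Against differentiated cells 8 of 61 were higher, beside 20.4%, and 1 of 16, beside 2.89%. None was over 20 points lower, beside 0.284% and 4.82% of the genome's bins against ESCs and 0.182% and 2.15% against differentiated cells, in the same order of labels. The first 3 of these shares of higher bins lay below the genome's, and the last rests on a single bin. These bin counts follow the labels and were not recomputed under the file names.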

How the data were processed

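ChIP-BS-seq counts were taken as the authors deposited them: raw counts of CpGs read as methylated or as unmethylated in each 200-bp bin, made with Bismark and Bowtie on mm9, with reads of mixed methylation removed. Methylated counts were the column that is rare on the mitochondrial genome. Whether an ESC or retinoic acid file pools repeats was not given in the sources used here. The deposited peak lists (HOMER) carry a score, used only for ranks; starts were read as 0-based and an overlap of 1 bp counted. Input, H3K36me and single-cell data were not analysed here, the last because its transcript IDs were not paired with gene names.

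Groups came from the sample labels. 5mC was methylated over all counts, with Clopper-Pearson intervals, and occupancy ratios had conditional exact intervals. All of these, and Fisher's exact test, take CpG counts as independent. With mixed reads removed, CpGs on the same read share 1 state, and PCR reads are not independent molecules. Intervals and p-values can therefore be too small. Bins were tested by Fisher's exact test (two-sided), adjusted over the genome by Benjamini-Hochberg (threshold 0.05, minimum 30 counts), checked on simulated data, in Python 3 (scipy). The exact permutation test was used only for the difference between the marks within XEN cells. Comparisons of XEN cells with the other states were not tested. Nothing states that XEN replicates were separate cultures, so their spread may be technical. Bins were named by rule: the 5 largest 5mC changes per direction and mark, the 5 with most ESC H3K27ac counts, bins differing between marks, the 5 top peaks per list and peaks of 1 state only. The core and edges of the -5 kb element and the runs of bins at -44, -34, 0, 57 and 62 kb were picked after their values were seen. Members and lists were chosen with earlier results of these data known. Promoters came from RefSeq (GRCm38.p6), with 1 of 3 genes matched. Counts of bins past a fold in occupancy are not given, since a bin can pass the count minimum through the state where it is high alone. Alternatives were other count minimums, scalings, extents, mark assignments and leaving out each XEN replicate.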

Additional observations from a re-analysis of the deposited data

Results flagged for a closer look

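The difference in 5mC between the marks over the locus had opposite signs in the cell states as labelled. H3K4me1 minus H3K27ac came to 12.5 points in the ESC libraries and to 17.4 points after retinoic acid, with 1 library of each mark, and -10.9 points in XEN cells, where both replicates of the labels gave a negative difference. The difference between cell states was not tested. Under the marks of the file names the XEN value was 10.9 points, of the same sign as in the other states.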

How the results depend on the processing

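Every log2 ratio of retinoic acid over ESC counts is given in the order H3K4me1 over the window, the Dppa3 and Gdf3 side, Nanog with 10 kb on either side and the Slc2a3 side, then the same for H3K27ac. The ratios as reported were -0.27, -1.01, -0.94, 0.36, -0.56, -2.44, -2.01 and 0.42. Scaled to counts outside peaks they were -0.64, -1.38, -1.30, -0.0057, -0.40, -2.28, -1.86 and 0.57. The setting with only bins of at least 4 counts in every library removes bins that lost their mark and scales to the counts of the bins kept. With it they were 0.0032, -0.32, 0.24, 0.048, -0.24, -1.66, -1.47 and 0.047. With bins of at least 4 counts in the library itself, chosen after seeing the data, those of H3K4me1 stayed within counting error and those of H3K27ac were -0.59, -2.80 and -2.18 in the first 3 extents. Over the Nanog interval with 10 kb on either side in place of the window, H3K4me1 was -0.94 and H3K27ac -2.01. Scaling to counts outside peaks also turned H3K4me1 over the element at -5 kb from 0.27 to -0.10 and over the bins at 62 to 64 kb from 0.19 to -0.17.

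For XEN cells the log2 ratios over the window were, in the order labelled H3K4me1 over ESCs and over differentiated cells and labelled H3K27ac over each, -0.43, -0.15, -0.30 and 0.26. Leaving out a XEN replicate gave ranges of -0.45 to -0.41, -0.18 to -0.13, -0.38 to -0.22 and 0.18 to 0.33. Scaled to counts outside peaks they were -1.09, -0.45, 0.38 and 0.78. With at least 4 counts in every library they were -0.29, -0.29, -0.32 and -0.084, and in the library itself -0.50, -0.25, -0.55 and 0.043. Over Nanog with its flanks they were -1.27, -0.33, -1.97 and 0.046, and under the file names 0.13, 0.40, -0.85 and -0.30.

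The rise of 5mC after retinoic acid was 27.9 points on H3K4me1 and 19.7 on H3K27ac over Nanog with its flanks, against 19.9 and 15.0 over the window. On H3K27ac it was 12.1 points in bins of at least 30 counts and 19.7 as their mean. XEN 5mC minus that of ESCs and of differentiated cells, 15.8 and -4.16 points for the label H3K4me1 and 39.2 and 24.2 for H3K27ac, was 26.7, 6.73, 28.3 and 13.3 under the file names. With at least 4 counts in every library the last was 25.2. Without a XEN replicate the ranges were 15.0 to 16.6, -4.97 to -3.36, 39.0 to 39.3 and 24.0 to 24.4. The XEN difference between marks was -10.9 points as a replicate block too (exact sign-flip p = 0.5, the smallest 2 pairs allow), -11.5 to -10.3 without a replicate, and 10.9 under the file names. The numbers share no stated batch, so they name replicates only.

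Bins with more 5mC after retinoic acid, 74 on H3K4me1 and 24 on H3K27ac, were 37 and 12 at a minimum of 60 counts and 44 and 14 past 30 points. Those with less on H3K4me1, 2, were 4 at 20 counts, 1 at 60 and 0 past 30 points. Between marks a minimum of 20 counts gave 1 bin higher and 2 lower on H3K4me1 in ESCs and 5 higher after retinoic acid, where a minimum of 60 or an added Fisher's exact test gave 0. Above the median score of their list lay 6 of the 11 H3K27ac and 9 of the 20 H3K4me1 peaks of differentiated cells. In the Nanog interval 13 bins held 30 counts on H3K4me1 in ESCs and 1 in differentiated cells, and 7 and 0 on H3K27ac, so 1 and 0 bins could be tested there. Transcripts of the 3 genes were not analysed here.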
